A study of Mus musculus with 23 samples.

Results

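The transcripts of 37 cell cycle genes were followed in mouse quadriceps muscle with normal, reduced or raised Nampt. The genes were taken by symbol from a list that was chosen with earlier results of these data known. Joined to the deposited tables of counts, they are 37 of the 38924 genes counted. They cover the D-type cyclins with Cdk4, the MCM helicase, DNA synthesis, the later cyclins with Cdk1, the mitotic kinases and spindle checkpoint, the anaphase promoting complex, the kinetochore, the spindle and cytokinesis, and the chromosome proteins Mki67 and Top2a. Poly(A) RNA of quadriceps was sequenced in 23 libraries, each named for another mouse of the C57BL/6 background. The wild-type groups were 4, 7 and 24 months old (WT_4m, WT_7m and WT_24m, 4 libraries each). Mice lacking Nampt in skeletal muscle, called mNKO, were 7 months old (mNKO_7m, 4 libraries). Mice with extra Nampt in skeletal muscle, called MCK-NamptOE, were 4 months (OE_4m, 3 libraries) and 24 months old (OE_24m, 4 libraries). Nampt encodes the enzyme that limits the salvage of nicotinamide into NAD. The transgene's name points to the muscle creatine kinase (MCK) promoter, and the driver of the mNKO deletion is not given in the sources used here. Sex is not given, some mice had glucose and exercise tolerance tests, and RNA was purified with miRNeasy at 7 months and with Trizol at 4 and 24 months.

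A cell that divides passes from G1 into S phase, when cyclin D and its kinases release the E2F factors and the MCM ring unwinds DNA, and then through G2 into mitosis under cyclin B and Cdk1. Many genes of the late cycle share a promoter layout of CCAAT boxes, bound by NF-Y, and a cell cycle homology region (CHR), bound by the MuvB complexes that repress these genes in resting cells and activate them with B-Myb and FoxM1 in dividing cells. Fibres of adult skeletal muscle are post-mitotic, so dividing cells in muscle are normally its mononuclear cells, such as satellite cells, fibro-adipogenic progenitors, endothelial cells and leukocytes.

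The promoters shown here belong to the members with the largest rises in mNKO muscle among those that averaged at least 1 CPM there (CPM, the count scaled to the normalised size of its library). They were printed to show where the motifs of the late cycle lie in these genes. Each runs from 250 bases before to 50 bases after a RefSeq start site on GRCm38.p6, 5′ to 3′ on the strand of the gene. Capitals mark matches, on either strand, to the CCAAT box, to the CHR (TTTGAA or TTTAAA), or to an E2F core (TTCCCGC or TTGGCGC or TTCGCGC or TTGCCGC). Aurkb, which the rule also names, is not shown. Cdk1 lies at chr10:69352863-69353162 on the minus strand, Cenpf at chr1:189688037-189688336 on the minus strand, Mki67 at chr7:135716330-135716629 on the minus strand, Rrm2 at chr12:24708004-24708303 on the plus strand, and Top2a at chr11:99024140-99024439 on the minus strand.
Cdk1: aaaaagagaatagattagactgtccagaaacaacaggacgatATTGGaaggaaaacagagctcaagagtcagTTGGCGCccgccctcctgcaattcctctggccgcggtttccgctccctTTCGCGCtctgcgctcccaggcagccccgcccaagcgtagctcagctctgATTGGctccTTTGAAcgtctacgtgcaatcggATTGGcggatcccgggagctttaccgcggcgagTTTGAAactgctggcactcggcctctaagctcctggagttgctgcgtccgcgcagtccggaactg
Cenpf: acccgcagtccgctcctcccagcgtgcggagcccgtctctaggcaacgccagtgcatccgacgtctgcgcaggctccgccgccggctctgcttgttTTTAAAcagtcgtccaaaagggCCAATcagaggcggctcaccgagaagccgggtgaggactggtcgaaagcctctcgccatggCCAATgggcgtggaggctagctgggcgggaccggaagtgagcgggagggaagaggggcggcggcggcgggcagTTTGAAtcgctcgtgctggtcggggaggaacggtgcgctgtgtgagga
Mki67: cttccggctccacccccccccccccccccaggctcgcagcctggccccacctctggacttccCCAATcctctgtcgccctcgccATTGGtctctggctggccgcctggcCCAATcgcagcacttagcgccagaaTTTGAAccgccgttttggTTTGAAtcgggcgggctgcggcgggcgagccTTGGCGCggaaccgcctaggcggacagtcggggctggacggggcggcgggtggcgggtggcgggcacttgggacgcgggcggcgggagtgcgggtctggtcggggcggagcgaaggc
Rrm2: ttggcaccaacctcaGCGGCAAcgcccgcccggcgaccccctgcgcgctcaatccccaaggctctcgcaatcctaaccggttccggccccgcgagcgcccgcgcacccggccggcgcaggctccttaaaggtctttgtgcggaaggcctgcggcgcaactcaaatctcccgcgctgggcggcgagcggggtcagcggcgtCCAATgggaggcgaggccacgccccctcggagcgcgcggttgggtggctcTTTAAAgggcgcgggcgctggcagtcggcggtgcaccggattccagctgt
Top2a: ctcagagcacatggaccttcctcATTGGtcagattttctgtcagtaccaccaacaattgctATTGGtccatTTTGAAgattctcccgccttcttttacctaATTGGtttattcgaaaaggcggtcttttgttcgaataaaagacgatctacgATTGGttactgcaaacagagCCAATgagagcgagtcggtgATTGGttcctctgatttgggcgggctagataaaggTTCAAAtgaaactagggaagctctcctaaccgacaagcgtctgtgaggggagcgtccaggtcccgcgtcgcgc

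The Cdk1 window held 3 CCAAT boxes, 2 CHR matches and 2 E2F cores. The Top2a window held 6 CCAAT boxes and 2 CHR matches, and the Mki67 window 3 CCAAT boxes, 2 CHR matches and 1 E2F core. In the Cenpf window there were 2 CCAAT boxes and 2 CHR matches, and in the Rrm2 window 1 match of each kind. RefSeq gave 33 start sites for 30 of the 37 members. A CCAAT box was found in 84.8% of these 33 windows and in 37.4% of all 32851 mouse windows of 300 bases. A CHR match was found in 69.7% against 27.6%, an E2F core in 27.3% against 9.57%, and a CCAAT box together with a CHR match in 63.6% against 10.7%. The E2F cores sat mostly in genes of S phase: the windows of Mcm3, Mcm5, Mcm6, Mcm7 and Rrm2 held them. So did those of Ccnb1, Cdk1 and Mki67, while those of Mcm2, Pcna and Tk1 held none. Matches that overlap on the 2 strands, as in Mcm3 and Mcm6, were counted apart. The windows of Cdk4 and Nusap1 and 1 of the 2 windows of Ccnd3 held no match of any kind. Of the 33 windows, 26 belonged to members that rose in mNKO muscle and 7 to the other members. A CCAAT box was found in 84.6% of the former and 85.7% of the latter. For a CHR match the shares were 73.1% and 57.1%, and for an E2F core 26.9% and 28.6%. A CCAAT box together with a CHR match was found in 69.2% (18 of 26) and 42.9% (3 of 7). The 7 windows come from 6 genes, with 2 windows of Mcm7 and 1 of Bub1, which was not tested. They are too few to compare these shares. The window of Aurka, which fell, held 2 CCAAT boxes and 2 CHR matches. A match is a run of letters and not a shown binding site.

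**Figure D1:**
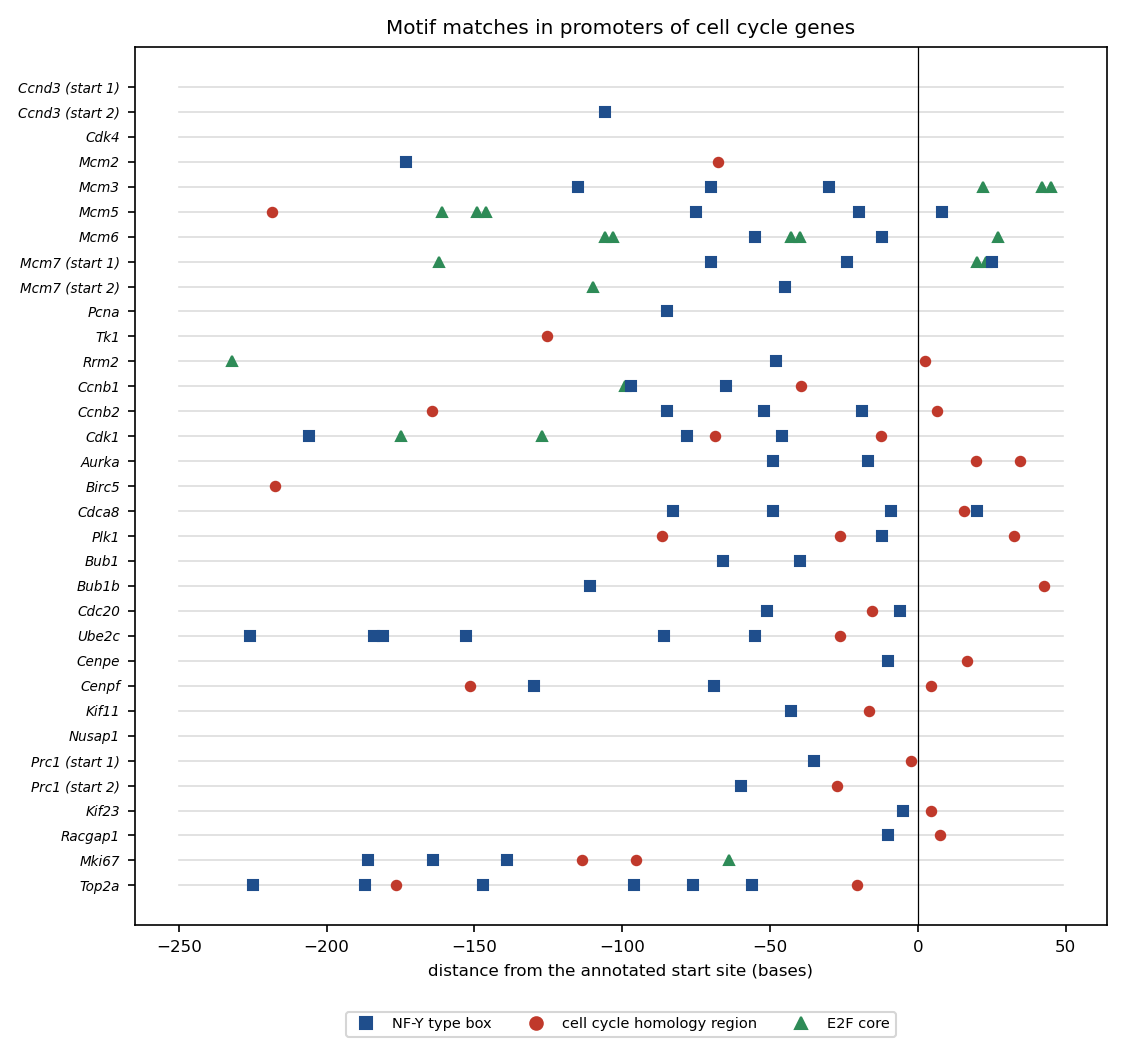
Motif matches in the 33 promoter windows of 30 cell cycle genes, 1 row per start site, against the distance in bases from the start site (0). Blue squares are CCAAT boxes (NF-Y type), red circles CHR matches and green triangles E2F cores. Of the 33 windows, 21 carry a CCAAT box and a CHR match, and the MCM genes carry most of the E2F cores.

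Counts assigned to genes ran from 14900674 to 22755930 per library at 7 months (8 libraries), but only from 2032544 to 3443762 at 4 and 24 months (15 libraries). Nampt read 102 to 127 CPM in WT_7m and 12.5 to 23.3 CPM in mNKO_7m. It read 189 to 253 CPM over WT_4m and WT_24m, and 4107 to 9533 CPM over OE_4m and OE_24m. The 7 markers of the muscle fibre summed to 86465 CPM or more in every library, so the libraries carry the transcripts of the labelled tissue. All 37 members had reads at 7 months, and 36 passed edgeR's filter on low counts (Bub1 did not). At 4 and 24 months 10 members passed it and 27 did not. A gene was called at a Benjamini-Hochberg adjusted p below 0.05 in edgeR's quasi-likelihood test over all genes tested, and these p-values measure the spread between the mice sampled. Levels are CPM, and in bulk muscle a change in the number of cells of a type and a change of RNA per cell cannot be told apart.

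In mNKO muscle at 7 months most of the cell cycle genes were higher. Of the 36 members tested, 29 rose, 2 fell (Aurka and Tpx2) and 5 did not pass the test (Ccnd2, Mcm2, Mcm7, Tk1 and Ube2c). Among all 13140 genes tested, 28.6% were called higher and 24.5% lower, so changed genes were common in this comparison. The median log2 fold change was 2.04 over the 36 members and 0.01 over all genes. Genes with few WT reads passed the filter on low counts only through the mNKO libraries. Among the members these include Aurkb (3 reads in WT_7m) and Cenpf (9 reads). Such genes could come out higher but not lower, which limits what the count of 29 and the median of 2.04 show. Of the 36 members tested, 28 had all mNKO libraries above all WT libraries, an order found in 27% of all genes tested. These 28 were among the 29 that rose. The 29 were picked by the same levels, so their share alone is not set against that of all genes. The exception among the 29 was Cdca8, where mNKO replicate 3 fell below WT replicate 4. Aurka and Tpx2 showed the reverse order, and its share over all genes is not given here. With libraries scaled by their totals alone, the median over all genes moved to 0.54, the calls over all genes moved from 3759 higher and 3215 lower to 6779 and 927, and the members stood at 31 higher and 1 lower with a median of 2.55.

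**Figure D2:**
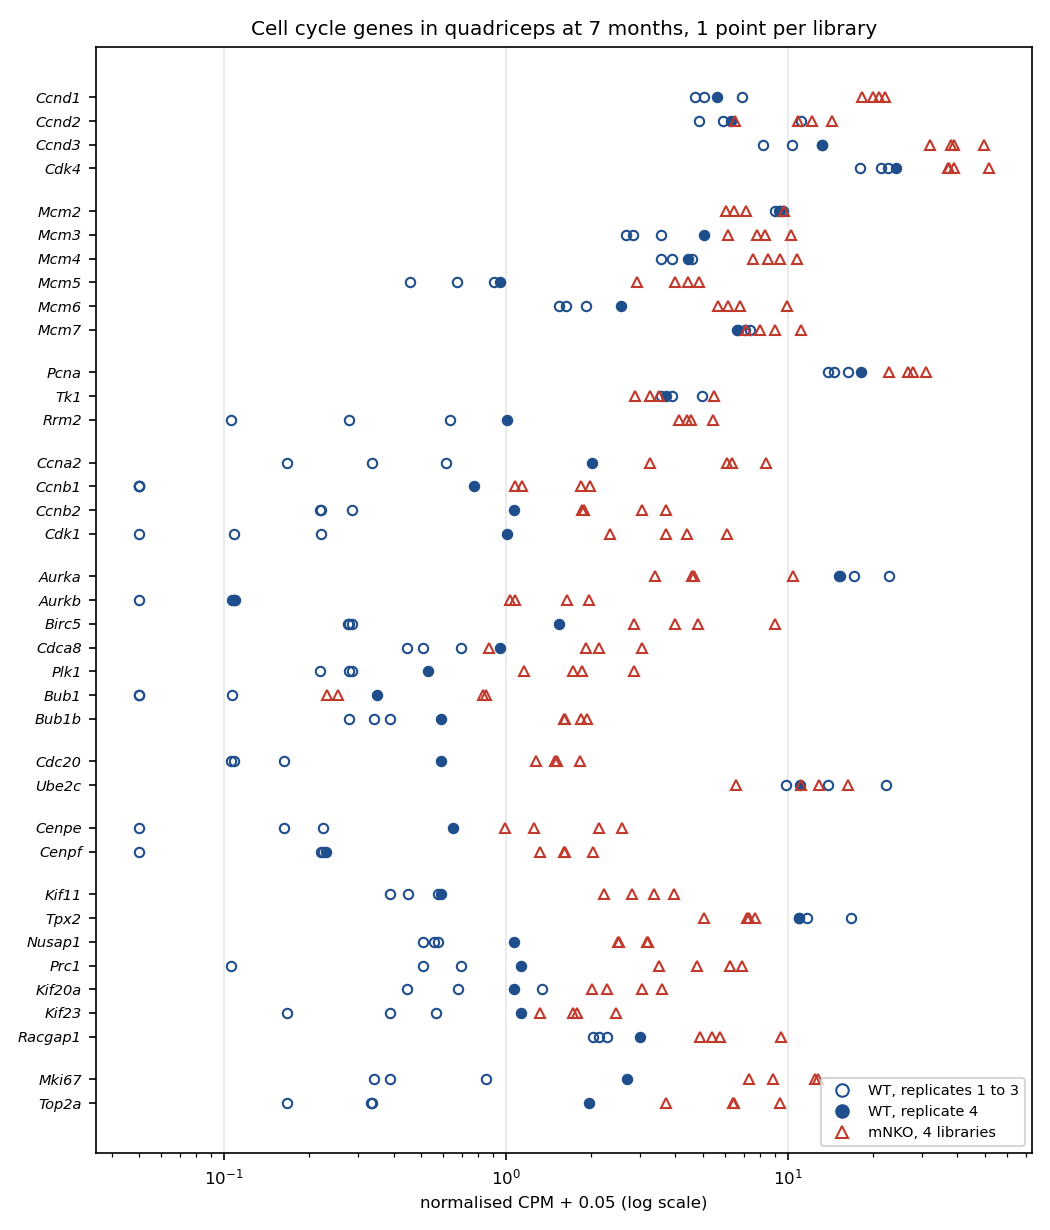
Levels of the 37 genes in the 8 libraries at 7 months, as normalised CPM plus 0.05 on a log axis, 1 row per gene in order of role. Circles are WT libraries (filled for replicate 4) and triangles mNKO libraries. In 28 of the 29 genes that rose all triangles lie to the right of all circles, and Aurka and Tpx2 show the opposite order.

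The D-type cyclins and their kinase Cdk4 drive the cell through G1. Ccnd1 read 4.63, 6.84, 4.98 and 5.58 CPM in the WT libraries and 22.1, 21, 20 and 18.3 CPM in the mNKO libraries. The groups lay far apart with little spread inside each, and Ccnd1 rose 3.69-fold (log2 fold change 1.88, SE 0.15, adjusted p = 9.23e-06). Ccnd3 rose 3.53-fold, from 11.2 ± 2.44 to 39.6 ± 7.46 CPM (SD, n = 4), with an adjusted p of 2.81e-05 from edgeR. Cdk4 rose 1.92-fold, from 21.5 ± 2.62 to 41.3 ± 7.12 CPM (SD, n = 4; edgeR adjusted p = 0.000323). Its neighbour Tspan31, which overlaps it, rose as well (log2 fold change 0.59, SE 0.13, edgeR adjusted p = 0.00225), and without strand the reads of overlapping genes cannot be told apart. The overlapping genes Oraov1 (at Ccnd1), Bysl (at Ccnd3), Afmid (at Tk1), Exosc9 (at Ccna2) and Cdc23 (at Kif20a) were not called. Ccnd2 gave 11.1, 5.85, 4.81 and 6.24 CPM in WT and 12.1, 10.8, 14.3 and 6.43 CPM in mNKO muscle. The groups overlapped because WT replicate 1 was high and mNKO replicate 4 low, and Ccnd2 did not pass the test (log2 fold change 0.64, SE 0.30, adjusted p = 0.0921). It passed without WT replicate 1 (0.97, adjusted p = 0.0111), without mNKO replicate 4 (0.83, adjusted p = 0.0245) and with total-count scaling (1.15, adjusted p = 0.0133), over a range of 0.0111 to 0.225.

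The MCM2 to MCM7 proteins form the ring that opens DNA at replication forks, yet their 6 transcripts did not move alike. Mcm5 read 0.858, 0.409, 0.622 and 0.901 CPM in WT and 4.38, 3.94, 2.87 and 4.79 CPM in mNKO libraries, without overlap. It rose 5.68-fold (log2 fold change 2.51, SE 0.30, adjusted p = 5.95e-05), the largest rise of the 6. Mcm6 rose 3.79-fold, from 1.86 ± 0.467 to 7.09 ± 1.94 CPM (SD, n = 4; edgeR adjusted p = 0.000106). Mcm3 rose 2.33-fold and Mcm4 2.21-fold, with edgeR adjusted p of 0.00135 and 0.000225. Mcm2 and Mcm7 were the best expressed of the 6 in WT muscle and neither was called. Mcm2 stood at 8.99 to 9.59 CPM in the WT libraries, and at 6.38, 7.08, 6 and 9.67 CPM in the mNKO libraries. Here 3 mNKO libraries lay below all WT libraries and mNKO replicate 4 above them (log2 fold change -0.35, SE 0.17, edgeR adjusted p = 0.0956). Without mNKO replicate 4, Mcm2 was called lower (-0.52, adjusted p = 0.011), and over all alternatives its adjusted p ran from 0.011 to 0.458. With total-count scaling its sign turned (0.17). Mcm7 gave a log2 fold change of 0.35 (SE 0.16, edgeR adjusted p = 0.0955). It was called higher without mNKO replicate 3 (0.44, adjusted p = 0.0479) and with total-count scaling (0.87, adjusted p = 0.00146), over a range of 0.00146 to 0.268. Cops6, which overlaps Mcm7 on the opposite strand, fell (log2 fold change -0.30, SE 0.11, edgeR adjusted p = 0.0374). Cops6 read 71.3 ± 5.19 CPM in WT and 57.8 ± 4.75 CPM in mNKO muscle (SD, n = 4).

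Genes of DNA synthesis split in the same way. Rrm2, the inducible subunit of ribonucleotide reductase, read 0.229, 0.585, 0.0565 and 0.961 CPM in WT and 4.5, 4.06, 4.35 and 5.38 CPM in mNKO muscle. The mNKO libraries were close to each other and all above the WT libraries, among which replicate 4 was highest. Rrm2 rose 9.97-fold (log2 fold change 3.32, SE 0.48, adjusted p = 0.000227), and 15.6-fold when WT replicate 4 was left out. Pcna, the sliding clamp of DNA polymerases, rose 1.72-fold, from 15.7 ± 1.90 to 27.1 ± 3.29 CPM (SD, n = 4; edgeR adjusted p = 0.000622). Tk1, the thymidine kinase of S phase, stood at 3.51 to 4.91 CPM in WT and 2.83 to 5.43 CPM in mNKO libraries (log2 fold change -0.09, SE 0.24, edgeR adjusted p = 0.762), and at 0.43 with total-count scaling.

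The cyclins of S phase, G2 and mitosis and their kinase Cdk1 all rose from near the limit of detection. Cdk1 read 0.172, 0.0585, 0 and 0.961 CPM in WT and 3.64, 4.36, 2.3 and 6.03 CPM in mNKO libraries. WT replicate 4 carried most of the WT reads, yet all mNKO libraries lay above it. Cdk1 rose 13.6-fold (log2 fold change 3.77, SE 0.74, adjusted p = 0.00198), and 49.2-fold without WT replicate 4. The latter fold rests on 4 WT reads. Scaled to library totals alone, the ratio without that library was 77.4 (exact 95% counting interval 29.9 to 286). Ccna2, cyclin A2, rose 8.09-fold, from 0.737 ± 0.850 to 5.97 ± 2.11 CPM (SD, n = 4; edgeR adjusted p = 0.0033), and 18-fold without WT replicate 4. Ccnb2 rose 6.44-fold (edgeR adjusted p = 0.00148), and 13.1-fold without that library. With 10 WT reads left, the ratio of Ccnb2 per library total was then 20.2 (exact 95% counting interval 10.8 to 42.8). For Ccnb1, cyclin B1, all 12 WT reads came from WT replicate 4 (0.72 CPM), and the mNKO libraries read 1.8, 1.09, 1.03 and 1.94 CPM. Its log2 fold change was 3.02 (SE 0.89, adjusted p = 0.0163) in edgeR, while DESeq2 gave 3.01 without a call (adjusted p = 0.109). Over all its alternatives the adjusted p ran from 0.000221 to 0.109. Without WT replicate 4 no WT read of Ccnb1 was left, and the mNKO level was at least 38.5-fold higher than a floor of 3 reads over the group, both scaled to library totals.

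The mitotic kinases and the checkpoint held the sharpest contrast. Aurka, the kinase of the spindle poles, lies on chromosome 2 at positions 172356190 to 172370535 (mm10, minus strand). It read 15.1, 22.9, 17.2 and 15.3 CPM in WT and 4.54, 10.4, 3.33 and 4.59 CPM in mNKO muscle. Every mNKO library was below every WT library, with mNKO replicate 2 the highest of its group. Aurka fell to 0.32 of the WT level (log2 fold change -1.64, SE 0.32, adjusted p = 0.00184). Aurkb, the kinase of the chromosomal passenger complex at the centromere, went the other way. It read 0.0572, 0.0585, 0 and 0.06 CPM in WT and 1.92, 1.03, 0.986 and 1.6 CPM in mNKO libraries. With 3 WT reads against 120 mNKO reads, the ratio per library total was 46.9 (exact 95% counting interval 15.7 to 231). Ratios per library total leave out the normalisation factors behind the fitted folds and CPM, and so run higher in this comparison. These factors were 0.752 to 0.913 in the WT and 1.109 to 1.286 in the mNKO libraries. The fitted log2 fold change of Aurkb was the largest of the members (4.80, SE 0.55, adjusted p = 4.68e-05). The passenger proteins Birc5 (survivin) and Cdca8 (borealin) rose with it. Birc5 read 0.229, 0.234, 0.226 and 1.5 CPM in WT and 4.75, 3.94, 2.79 and 8.97 CPM in mNKO muscle, a rise of 9.33-fold (edgeR adjusted p = 0.00193) and of 21.7-fold without WT replicate 4. Cdca8 rose 3.22-fold, from 0.599 ± 0.227 to 1.94 ± 0.891 CPM (SD, n = 4; edgeR adjusted p = 0.00613). The gene 9930104L06Rik, which overlaps Cdca8 on the opposite strand, fell (log2 fold change -0.51, SE 0.18, edgeR adjusted p = 0.031). Plk1, a kinase of mitotic entry, rose 6.53-fold, and Bub1b, which encodes the checkpoint protein BubR1, rose 4.82-fold (edgeR adjusted p = 0.000309 and 0.000179). Bub1, its partner in the checkpoint, was not tested: it had 6 reads in WT and 43 in mNKO libraries, a ratio per library total of 8.41 (exact 95% counting interval 3.56 to 24.2). Of the 6 WT reads 5 came from WT replicate 4, without which the ratio was 39.4 (6.7 to 1591). Its normalised level was 0.0893 ± 0.143 CPM in WT and 0.491 ± 0.343 CPM in mNKO libraries (SD, n = 4), and mNKO replicates 2 and 3 lay below WT replicate 4.

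The partners of the anaphase promoting complex, which ends mitosis by marking cyclin B for destruction, were Cdc20 and Ube2c. Cdc20, its activator, read 0.114, 0.0585, 0.0565 and 0.54 CPM in WT and 1.47, 1.45, 1.23 and 1.79 CPM in mNKO libraries. All mNKO libraries lay above WT replicate 4, and Cdc20 rose 7.61-fold (log2 fold change 2.93, SE 0.54, adjusted p = 0.000963), or 18-fold without that library. With 4 WT reads left, the ratio of Cdc20 per library total was then 28.8 (exact 95% counting interval 11 to 108). The gene Elovl1 overlaps Cdc20 and rose as well (log2 fold change 2.14, SE 0.18, edgeR adjusted p = 1.17e-05), at 4.33 ± 0.703 CPM in WT and 19.1 ± 3.85 CPM in mNKO muscle (SD, n = 4). Ube2c, the ubiquitin-conjugating enzyme of the complex, was not called (log2 fold change -0.28, SE 0.31, edgeR adjusted p = 0.482). It read 9.78 to 22.2 CPM in WT and 6.49 to 16.3 CPM in mNKO libraries. Ube2c overlaps Tnnc2, the fast troponin C of the fibre, on the opposite strand, and Tnnc2 read 14600 to 24193 CPM in WT and 7505 to 13133 CPM in mNKO muscle. The Ube2c reads were 0.0543 to 0.145% of the Tnnc2 reads in these 8 libraries. The strand of the libraries is not given in the sources used here, so reads of Ube2c and stray reads of Tnnc2 cannot be told apart.

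Both kinetochore genes rose. Cenpf, a large protein of the outer kinetochore, read 0.172, 0.175, 0 and 0.18 CPM in WT and 1.56, 1.57, 1.27 and 1.99 CPM in mNKO libraries. The WT libraries held 9 reads in all and none of them stood out, and Cenpf rose 11.7-fold (log2 fold change 3.54, SE 0.49, adjusted p = 0.000145). The motor protein Cenpe rose 7.58-fold, from 0.222 ± 0.262 to 1.70 ± 0.745 CPM (SD, n = 4; edgeR adjusted p = 0.00336), and 16.7-fold without WT replicate 4. With 5 WT reads left, the ratio of Cenpe per library total was then 26.9 (exact 95% counting interval 11.3 to 84.2).

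Of the 7 genes of the spindle and cytokinesis, 6 rose and Tpx2 fell. Prc1, which bundles the microtubules of the midzone, read 0.457, 0.643, 0.0565 and 1.08 CPM in WT and 6.18, 4.72, 3.45 and 6.83 CPM in mNKO muscle. It rose 9.44-fold without overlap (log2 fold change 3.24, SE 0.50, adjusted p = 0.000333), while Rccd1, which overlaps it, fell (log2 fold change -0.59, SE 0.21, edgeR adjusted p = 0.0309). Kif11, the motor that pushes the poles apart, rose 6.67-fold, from 0.451 ± 0.0978 to 3.03 ± 0.734 CPM (SD, n = 4; edgeR adjusted p = 3.85e-05). Nusap1 rose 4.44-fold and Kif20a 3.22-fold (edgeR adjusted p = 0.000179 and 0.00238). Kif23 and Racgap1 together form centralspindlin, which sets the cleavage furrow. Racgap1 rose 2.73-fold (edgeR adjusted p = 0.000631), and Kif23 rose 3.48-fold (edgeR adjusted p = 0.00841), or 5.43-fold without WT replicate 4. Tpx2, the microtubule factor that binds and activates Aurora A, lies on chromosome 2 at positions 152847964 to 152895321 (mm10, plus strand). It read 11.7, 16.7, 10.9 and 10.9 CPM in WT and 7.24, 7.14, 5.01 and 7.63 CPM in mNKO libraries. Every mNKO library was below every WT library, and Tpx2 fell to 0.538 of the WT level (log2 fold change -0.90, SE 0.19, adjusted p = 0.00209). With total-count scaling the fall of Tpx2 was no longer called (-0.37, adjusted p = 0.0974; 9.36e-05 to 0.0974 over its alternatives), whereas Aurka stayed called lower (-1.13, adjusted p = 0.0044).

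The proliferation marker Mki67 and topoisomerase II alpha, Top2a, coat and untangle chromosomes in dividing cells. Mki67 read 0.8, 0.292, 0.339 and 2.64 CPM in WT and 12.8, 8.84, 7.23 and 12.4 CPM in mNKO libraries. WT replicate 4 was the highest WT library and every mNKO library lay above it. Mki67 rose 10.2-fold (log2 fold change 3.34, SE 0.57, adjusted p = 0.00104), and 21.3-fold without WT replicate 4. Top2a read 0.286, 0.117, 0.283 and 1.92 CPM in WT and 6.34, 6.42, 3.66 and 9.37 CPM in mNKO muscle. It rose 9.90-fold (log2 fold change 3.31, SE 0.67, adjusted p = 0.00255), and 27.3-fold without that library.

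**Figure D3:**
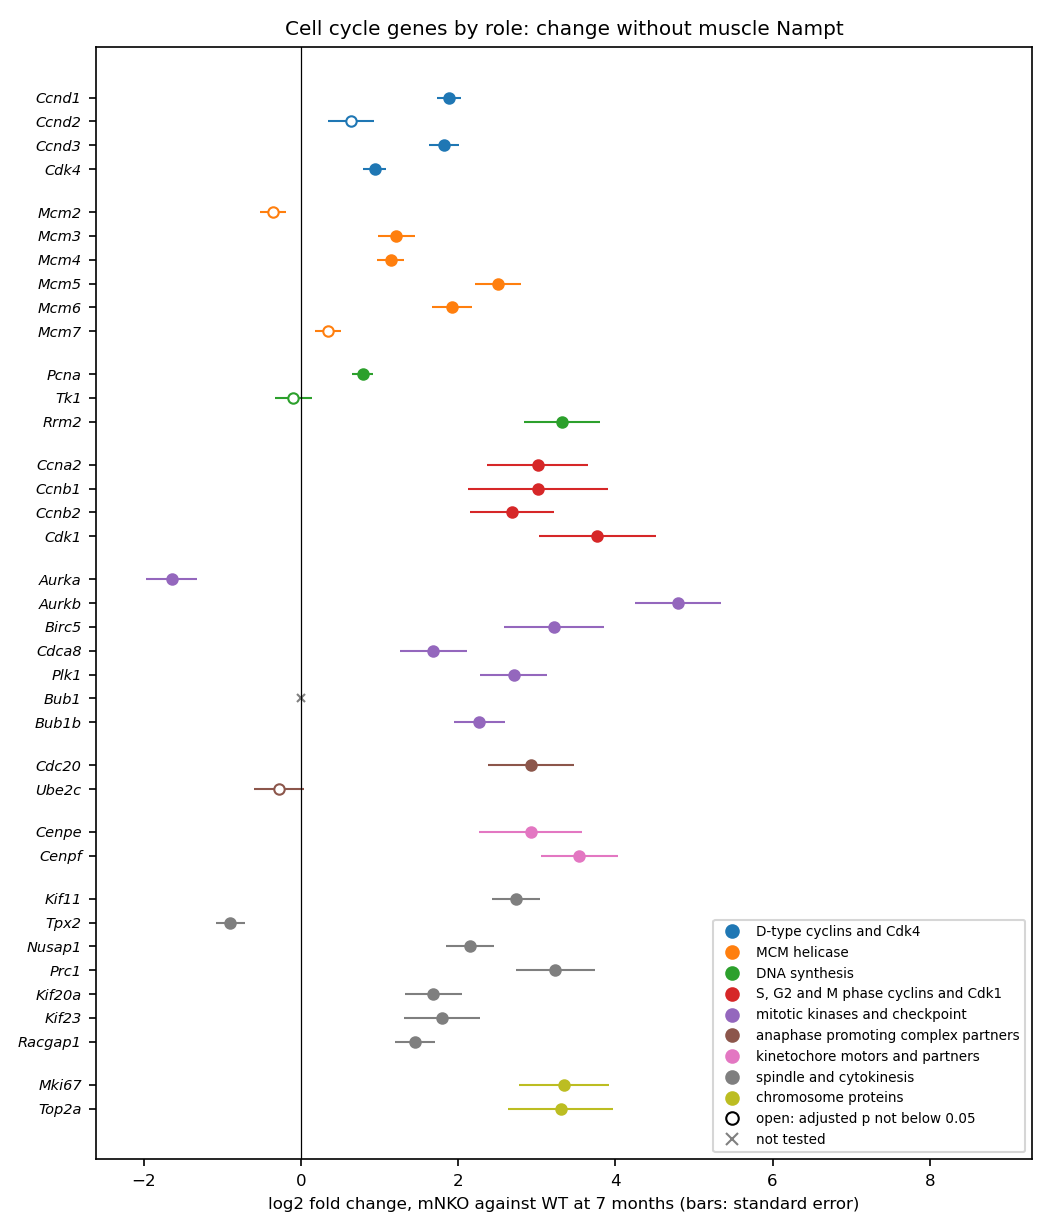
Log2 fold changes of the 37 genes in mNKO against WT muscle at 7 months, coloured by role, with bars of 1 standard error from edgeR's fit. Filled points passed the test at an adjusted p below 0.05, open points did not, and the cross marks Bub1, which was not tested. The points run from -1.64 (Aurka) to 4.80 (Aurkb).

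Levels can be set against each other per kilobase of exon. In WT_7m muscle Aurka led with 6.98 ± 1.43 CPM per kilobase, followed by Cdk4 (6.63 ± 0.806), Pcna (6.54 ± 0.792) and Ube2c (5.46 ± 2.14), each over 4 libraries. These leaders did not differ beyond their spread: the ranges of all of them met between 5.97 and 7.42 CPM per kilobase. Tpx2 was next at 2.68 ± 0.590, and its highest library (3.57) was below the lowest of Ube2c (3.76). At the bottom of the WT order stood Cenpf at 0.00854, Aurkb at 0.0149 and Bub1 at 0.0205 CPM per kilobase, all with ranges that reached 0. In mNKO_7m muscle Cdk4 (12.7 ± 2.19) and Pcna (11.3 ± 1.37) led with overlapping ranges, and Ccnd3 (4.51 ± 0.850), Ube2c (4.51 ± 1.58) and Ccnd1 (4.32 ± 0.340) followed, also with overlapping ranges. In mNKO_7m muscle Cenpf (0.104 ± 0.0192) and Bub1 (0.113 ± 0.0788) stood at the bottom, and their ranges overlapped.

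Libraries ordered themselves in a shared way across the members. Among the 29 genes that rose, WT replicate 4 was the highest WT library in 26, mNKO replicate 4 the highest mNKO library in 22 and mNKO replicate 3 the lowest in 22. Leaving out WT replicate 4 enlarged the fitted folds of 11 of the 36 tested members by over 1.5 times, as given with each of them, besides the ratio of Bub1. No other single library moved a fitted fold that far. Summed markers of macrophages and of T cells were likewise highest in replicate 4 of both groups and lowest in mNKO replicate 3. All 12 macrophage markers tested rose in mNKO muscle (11 without WT replicate 3), and their summed level was 191, 99.4, 113 and 359 CPM in WT replicates 1 to 4 and 1160 to 2388 CPM in the mNKO libraries, lowest in replicate 3 and highest in replicate 4. In WT replicate 4 the sums of fibroblast (1180 CPM), satellite cell (61.6 CPM), B cell (0.72 CPM) and adipocyte markers (433 CPM) were also the highest of the 4 WT libraries. The sums of endothelial (210 CPM), Schwann cell (49.3 CPM) and red blood cell markers (170 CPM) were the lowest there. Other sums shared the order of the mNKO libraries in part. The fibroblast sum was highest in mNKO replicate 4 (4383 CPM) and lowest in mNKO replicate 2, and the adipocyte sum was lowest in mNKO replicate 4. The satellite cell sum (151 CPM) and the B cell sum (1.15 CPM) were lowest in mNKO replicate 3. They were highest in mNKO replicate 1 and in mNKO replicate 2, respectively. The neutrophil sum was highest in mNKO replicate 4 and lowest in mNKO replicate 3, but in WT was highest in replicate 2. All 9 fibroblast and fibro-adipogenic progenitor markers rose, from a summed 895 to 1180 CPM to 2983 to 4383 CPM. Of the 7 satellite cell and myoblast markers tested 5 rose (3 without WT replicate 1 or without mNKO replicate 3), from a summed 55.5 to 61.6 CPM to 151 to 209 CPM. Leukocyte markers other than those of macrophages were scarce. The 7 T cell markers summed to 0.452 to 1.68 CPM in WT and 6.69 to 24.6 CPM in mNKO libraries, with Cd3g and Cd8a at 0 in WT. The 2 T cell markers tested rose (5 without any WT library or without mNKO replicate 3). The 4 B cell markers stayed at or below 2.12 CPM in sum, with Ms4a1 at 0 in mNKO muscle, and the 1 tested rose (2 without WT replicate 4). The 5 neutrophil markers summed to 1.02 to 2.81 CPM in WT and 5.01 to 7.88 CPM in mNKO libraries with Ly6g at 0 throughout, and 1 of the 3 tested rose (2 without any WT library or without mNKO replicate 1). Of the 7 fibre markers 5 fell, from a summed 186029 to 230756 CPM to 86465 to 135973 CPM, and no marker of endothelium, adipocytes, Schwann cells or red blood cells was called. Of those 20 tested markers 2, both endothelial, had an unadjusted p below 0.05. DESeq2 called 1 of the endothelial markers lower, total-count scaling 2 higher, 1 was called higher without mNKO replicate 2, and without mNKO replicate 3 the calls were 2 endothelial and 1 Schwann cell marker lower. The part of these cell types in the rise of the cell cycle genes was not tested.

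Other genes of the cycle were read from lists in the same comparison, in which 28.6% of all genes were called higher and 24.5% lower. Counts for replication and nucleotide supply lie near these shares. Of 34 other mitotic genes tested, 29 rose and 1 fell, with a median log2 fold change of 2.26. The limit given above for genes with few WT reads holds for this list too. They included the Cdk subunit Cks2 (3.03), the kinetochore protein Nuf2 (2.75), the spindle adaptor Knstrn (2.45) and the kinesin Kif2c (3.78). Securin, Pttg1, fell (-0.53, SE 0.16, edgeR adjusted p = 0.0145), although its groups overlapped, at 81.7 ± 12.6 CPM in WT and 56.8 ± 9.33 CPM in mNKO muscle (SD, n = 4). Of 34 genes of replication origins and forks 12 rose and 8 fell. The licensing factor Cdt1 (3.07) and the chromatin assembly subunit Chaf1b (2.20) rose, and the origin protein Orc3 (-1.02) and the clamp loader subunit Rfc4 (edgeR adjusted p = 0.00154) fell. Of 16 regulators of the passage from G1 to S, 8 rose and 7 fell. The kinase Cdk6 (3.80) and the transcription factors E2f2 (1.51) and E2f8 (4.40) rose, while the repressor E2f6 fell (-1.28), from 166 ± 24.4 to 68.5 ± 6.97 CPM (SD, n = 4). Of 7 nucleotide supply genes 2 rose, thymidylate synthase Tyms (1.85) and the kinase Dck (1.02), and 2 fell, the ribonucleotide reductase subunits Rrm2b (-1.55) and Rrm1 (-0.54). The fall of Rrm2b, the subunit of resting cells, stood beside the rise of its S phase counterpart Rrm2 (3.32). Of 10 condensin and cohesin genes 5 rose, among them Smc1a (0.80), Smc2 (1.70), Smc4 (1.28) and Ncapg (3.20), and Stag2 (-0.48) fell.

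For genes that hold the cycle back, the counts again lie near the shares of all genes called (28.6% higher and 24.5% lower). Of 10 CDK inhibitors and RB family genes, 3 rose and 2 fell (1 without any of 7 of the 8 libraries taken singly). Cdkn2a, the locus of p16 and p19ARF, read 18.1 ± 1.60 CPM in mNKO and 0.194 ± 0.256 CPM in WT muscle (SD, n = 4), a log2 fold change of 6.53 (SE 0.52, edgeR adjusted p = 1.41e-05). Cdkn1a, which encodes p21, rose (1.68), as did Cdkn2d (0.86), and the pocket protein gene Rbl2 fell (-1.07), from 77.2 ± 5.42 to 36.7 ± 5.53 CPM (SD, n = 4). Of 15 genes of quiescence and growth arrest 5 rose, with Btg1 (1.43) and Gas6 (0.75) among them, and 5 fell, with Foxo4 (-1.06) and Ccng1 (-1.68) among them; without mNKO replicate 4 only 3 fell. With total-count scaling, in which all genes shift upward, the calls were 19 higher and 1 lower for replication, 9 and 1 for G1 to S, 6 and 1 for CDK inhibitors, 4 and 1 for nucleotide supply, 8 and 0 for condensin and cohesin, 8 and 2 for quiescence, and 0 lower for the other mitotic genes.

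**Figure D4:**
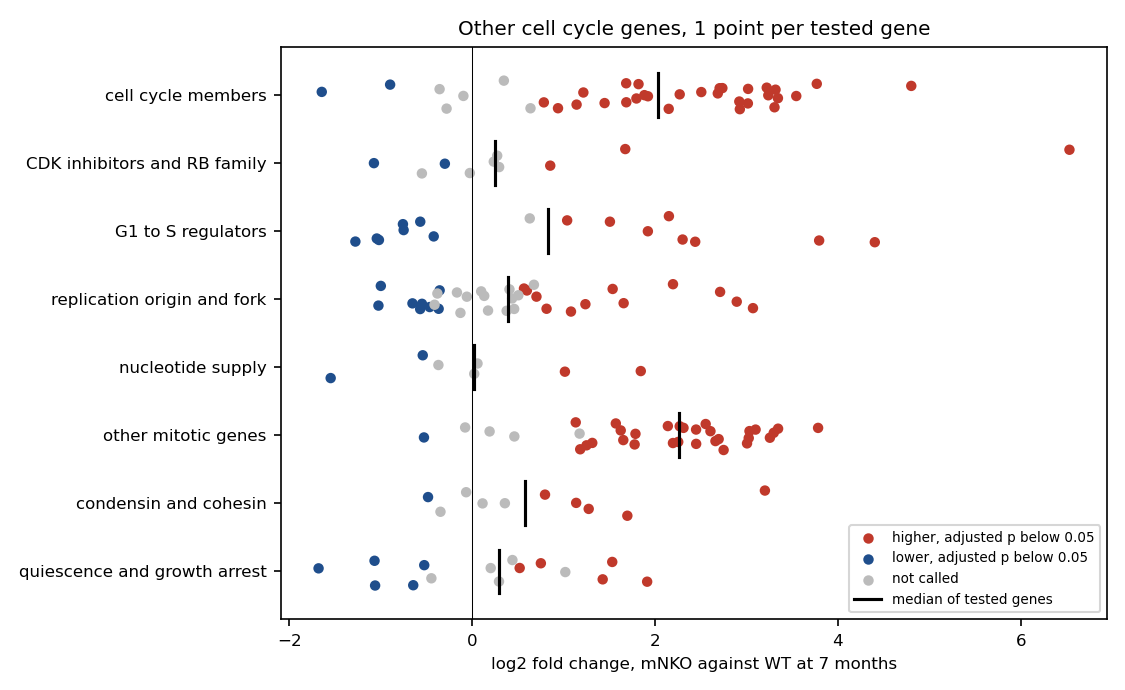
Log2 fold changes in mNKO against WT muscle at 7 months for the members and 7 lists of other cell cycle genes, 1 point per tested gene, with red points called higher, blue points called lower and grey points not called. Black bars are medians, which lie at 2.04 for the members, 2.26 for the other mitotic genes and between 0.02 and 0.84 for the other 6 lists.

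The comparisons at 4 and 24 months ask what extra Nampt and age do to these genes, and they rest on shallow libraries. The 10 members tested were Ccnd2, Ccnd3, Cdk4, Mcm2, Mcm3, Mcm4, Mcm7, Pcna, Ube2c and Tpx2. In edgeR 0 of them were called between MCK-NamptOE and WT muscle at 4 months, where 0.0109% of all 9144 genes tested were called higher and 0% lower. At 24 months again 0 were called, beside 0.0109% higher and 0% lower of all genes. With age 0 were called in WT muscle, beside 0.0656% higher and 0.0875% lower, and 0 in MCK-NamptOE muscle, beside 0.317% higher and 0.416% lower. The interaction of genotype and age gave 0 calls among the members and 0% in each direction among all genes. DESeq2 also called 0 members in each of these comparisons, though it gave no p for Ube2c and, for age in WT, no adjusted p for Ccnd2 and Mcm3. Without the filter on low counts, edgeR called 1 member, Ube2c, higher with age in MCK-NamptOE muscle (log2 fold change 1.15, SE 0.28, adjusted p = 0.00358). With the filter its log2 fold change was 1.15 with an SE of 0.84 (adjusted p = 0.685), and its levels overlapped, at 5.64 to 8.58 CPM in OE_4m and 5.23 to 19.4 CPM in OE_24m. At an unadjusted p below 0.05 edgeR gave 1 member, Mcm2, between MCK-NamptOE and WT muscle at 24 months, and 0 in the other comparisons. These comparisons share their control libraries in part.

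Pcna was the best measured of the 10 for its standard error. It read 22.5, 17.2, 18.2 and 19.2 CPM in WT_4m, 14.4, 16.9 and 24.7 CPM in OE_4m, 18.7, 21.7, 17.7 and 17.4 CPM in WT_24m, and 23.3, 16.1, 16.2 and 19.8 CPM in OE_24m. All groups overlapped, with log2 fold changes of -0.06 and -0.00 for extra Nampt at 4 and 24 months and -0.02 and 0.04 for age in WT and MCK-NamptOE muscle (SE 0.18 to 0.20). Cdk4 read 7.26 to 14.7 CPM in WT_4m, 10.7 to 16.8 CPM in OE_4m, 8.11 to 13.4 CPM in WT_24m and 9.44 to 15.4 CPM in OE_24m, again with overlap. Mcm2 read 7.96, 3.82, 3.3 and 6.16 CPM in WT_24m and 0.805, 3.05, 4.16 and 3.52 CPM in OE_24m. Its groups overlapped, and it did not pass edgeR's test (log2 fold change -0.83, SE 0.38, unadjusted p = 0.0411, adjusted p = 0.659). Ube2c read 4.38, 3.82, 36 and 3.99 CPM in WT_24m, so WT_24m replicate 3 stood far above the rest with 120 reads. Its Ube2c reads were 0.665% of its Tnnc2 reads, the highest such share in the 4 WT_24m libraries, while its Tnnc2 level of 5420 CPM lay inside the 4670 to 5776 CPM of its group.

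Few reads stood behind the 27 members without a test at these ages, and 25 of them had at most 14 reads in any group. Together the 27 gave 133 reads in WT_4m, 122 in OE_4m, 104 in WT_24m and 133 in OE_24m. Scaled to library totals alone, their summed level was 8.09 to 22.3 CPM in WT_4m, 12.6 to 18 in OE_4m, 6.86 to 11.3 in WT_24m and 11.2 to 15.5 in OE_24m. The 2 groups of each comparison overlapped, though WT_24m and OE_24m did so only between 11.2 and 11.3 CPM. Bub1 and Cdc20 had no read in any of the 15 libraries, which allows up to 0.296 CPM in WT_4m, 0.378 in OE_4m, 0.26 in WT_24m and 0.303 in OE_24m (3 reads over the group, counting error only). Mki67 and Top2a together had 10 reads in WT_4m, 10 in OE_4m, 1 in WT_24m and 5 in OE_24m, and all 10 of OE_4m came from replicate 2. The best covered were Aurka, with 16 to 26 reads per group and 2.10 to 2.45 CPM on average, and Mcm6. Mcm6 read 1.23, 0.846 and 1.01 CPM in OE_4m (8 reads) and 3.62, 1.31, 4.53 and 4.84 CPM in OE_24m (35 reads), so all of the older libraries lay above the younger. In edgeR without the filter on low counts Mcm6 was not called (log2 fold change 1.79, SE 0.60, unadjusted p = 0.00304, adjusted p = 0.11). DESeq2 did not call it (1.82, SE 0.80, adjusted p = 0.414). Among the 27, the only other order without overlap in a comparison of 2 groups was Mki67 with age in WT muscle. Mki67 read 0.318 to 1.56 CPM in WT_4m (7 reads) and 0 to 0.3 CPM in WT_24m (1 read), so the older libraries lay below. For Mki67 edgeR without the filter gave -2.55 (SE 1.18, unadjusted p = 0.0302, adjusted p = 0.536). The share of such orders over all genes is not given here. In the unfiltered edgeR fit, 0 of the 27 were called in any of these comparisons. Markers of other cells gave few calls: with age Col1a1 of fibroblasts and Cdh5 of endothelium fell in WT muscle, and Col1a1, Cd34, Cdh5 and Pecam1 fell in MCK-NamptOE muscle. Of the other cell cycle lists, the CDK inhibitor Cdkn1b was called lower with age in MCK-NamptOE muscle (log2 fold change -0.83, SE 0.15, edgeR adjusted p = 0.00798), the only call among the lists at these ages.

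**Figure D5:**
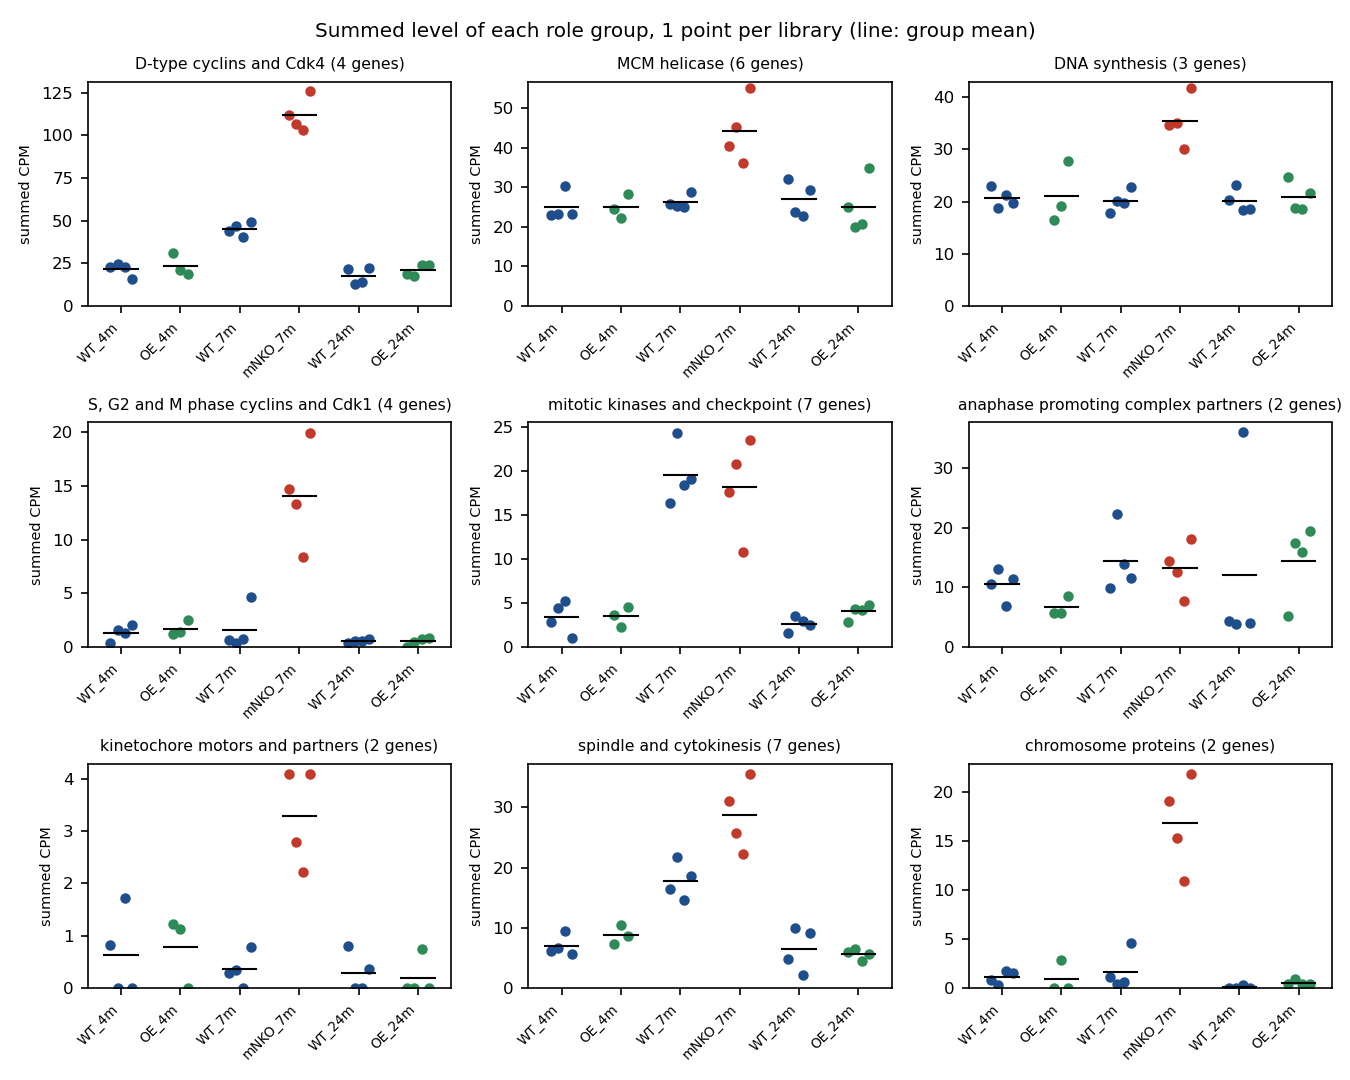
Summed CPM of each of the 9 role groups in the 23 libraries, 1 point per library, with a line at the mean of each of the 6 groups and axes from 0. The sets of 7 months and of 4 and 24 months were normalised apart and extracted differently, so levels are to be compared within a set. mNKO libraries lie above their WT libraries in 7 of the 9 panels, and overlap them for the mitotic kinases and for the anaphase promoting complex partners. Each of these 2 sums is mostly 1 gene. Aurka gave 1217 of the 1347 WT_7m reads of the mitotic kinases, of which 5 of 6 tested rose. Ube2c gave 979 of the 992 WT_7m reads of the anaphase promoting complex partners.

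The authors' deposited table for mNKO against WT muscle lists all 37 members, with 29 higher and 2 lower at an adjusted p below 0.05. In the authors' deposited table Bub1 is among those called higher (adjusted p = 0.036) and Ccnb1 is not (adjusted p = 0.113). The authors' deposited tables for MCK-NamptOE against WT list 37 members at 4 months and 6 at 24 months, with 0 called, and that for age in WT lists 18, with 0 called. In the authors' deposited table for age in MCK-NamptOE muscle 1 of 18 listed members is called, Racgap1 (log2 fold change -1.45, SE 0.44, adjusted p = 0.0336). Its levels were 0.41, 2.25 and 2.02 CPM in OE_4m and 0.805, 0, 0.378 and 0 CPM in OE_24m, which overlap, and Racgap1 did not reach the filter on low counts used here. Without that filter edgeR gave it a log2 fold change of -2.22 (SE 0.88, unadjusted p = 0.012, adjusted p = 0.274).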

How the data were processed

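RNA abundance was read from deposited tables of counts per gene, 1 per library. Per the submitters' processing notes, the authors used cutadapt 1.4.2, TopHat2, HTSeq, DESeq and DESeq2 with the mouse build mm10. The order and settings of these tools, and whether reads were counted by strand, are not given in the sources used here. The 5 summary lines of each count file (21.53 to 40.02% of its total) name no gene and were left out. The authors' deposited comparison tables hold, for each gene, a p-value and its adjusted form, a Wald statistic (a score), the log2 fold change and its standard error, and a signal (mean normalised count).

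The counts were fitted with edgeR 4.0.16 in R 4.3.3, with filterByExpr, TMM factors and a robust quasi-likelihood F test over all genes, adjusted by Benjamini-Hochberg and called below 0.05. The set of 7 months (13140 genes, 6 residual degrees of freedom) and that of 4 and 24 months (9144 genes, 11 residual degrees of freedom) were fitted apart. No batch is given in the labels beyond the RNA purification, which follows the ages and cannot be told apart from them. The fits were tested on simulated data in which only well-counted genes were changed, so that test does not cover members with few reads. Alternatives were RLE factors, total counts, every gene with at least 1 read, DESeq2 1.42.0, fits of only the 2 groups compared, and leaving out each library. All 37 members were named, with up to 4 genes of each other list by smallest p, and promoters of up to 6 called members with the largest folds and at least 1 CPM. Genes named beyond these, such as Pttg1 and Stag2, were chosen after their values were seen. The members and lists were chosen with earlier results of these data known. Intervals and floors cover counting error only. Positions are from GENCODE M21 on mm10.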

Additional observations from a re-analysis of the deposited data

Results flagged for a closer look

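In all, 113 groups of 4 libraries were examined. Of them 10 held a library whose gap to the nearest of the others was over 0.829 of the group's range. For independent, normally spread values about 1 in 20 groups hold such a gap. That rate does not carry over to low counts from shared libraries. Of the 10, 6 concerned WT_7m replicate 4, the WT library in which 26 of the 29 genes that rose were highest. There Ccnb1 stood at 0.72 CPM beside 0 in the others. Ccnb2 read 1.02 CPM beside 0.17 to 0.234, and Birc5 read 1.5 CPM beside 0.226 to 0.234. Cdc20 read 0.54 CPM beside 0.0565 to 0.114, Nusap1 1.02 CPM beside 0.457 to 0.526, and Top2a 1.92 CPM beside 0.117 to 0.286. The summed markers of macrophages (359 CPM), fibroblasts (1180 CPM), satellite cells (61.6 CPM), T cells (1.68 CPM), B cells (0.72 CPM) and adipocytes (433 CPM) were also highest in this WT library. Those of endothelium (210 CPM), Schwann cells (49.3 CPM) and red blood cells (170 CPM) were lowest in it. The part of these cell types in the flagged values was not tested.

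The other 4 concerned single genes. Tpx2 read 16.7 CPM in WT_7m replicate 2 beside 10.9 to 11.7 CPM, and Cdk4 read 51.9 CPM in mNKO_7m replicate 4 beside 37.1 to 38.9 CPM. Ube2c read 36 CPM in WT_24m replicate 3 beside 3.82 to 4.38 CPM. Tk1 read 2.61 CPM in OE_24m replicate 2 beside 0.403 to 0.755 CPM, a value that rests on 6 reads.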

How the results depend on the processing

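Of the 36 fold changes of members at 7 months, 31 kept their side of the threshold in all 12 alternatives, among them 28 of the 29 that rose, with Ccnb1 the exception, and 29 also kept their direction. The sign turned for 3 members that were not called, Mcm2, Tk1 and Ube2c. Leaving out 1 library gave 29 to 30 members higher and 2 to 3 lower. With total counts 1 member was called lower in place of 2, and with every gene of at least 1 read 1 member (Ube2c) was called higher with age in MCK-NamptOE muscle. Among all genes, total counts gave 6779 higher and 927 lower at 7 months, and 14 higher and 5 lower with age in WT (from 6 and 8). With every gene of at least 1 read the higher and lower calls were 14 and 46 for MCK-NamptOE at 4 months and 94 and 36 at 24 months (from 1 and 0 in both). They were 81 and 106 for age in WT, 216 and 138 for age in MCK-NamptOE (from 29 and 38), and 89 and 17 for the interaction (from 0 and 0). DESeq2 gave 4 higher for MCK-NamptOE at 24 months, 16 and 21 for age in WT, 68 and 59 for age in MCK-NamptOE and 1 higher for the interaction. A fit of the 2 groups alone gave 45 and 25 for age in MCK-NamptOE. Leaving out 1 library gave 0 to 10 higher and 1 to 12 lower for age in WT, and 2 to 42 higher and 9 to 45 lower for age in MCK-NamptOE. The cause was not tested. No paired analysis was possible because the labels give no shared replicate numbers. At 4 and 24 months depth left 27 of the 37 members without a test.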
